A study of Mus musculus with 12 samples.

Results

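Of 43905 accessible regions found across 12 ATAC-seq libraries of mouse bone marrow, 8577 (19.5%) carried a peak in each of the 3 MLL-AF9 leukaemia libraries and in none of the other 9. The members were chosen by these calls: peaks on chromosomes 1 to 19 that overlapped by 1 bp or more were merged, and a region was kept when its calls followed that pattern. The name "open only in MLL-AF9 leukaemia" therefore goes further than the data. A region missing from a library's list was not called there, and chromatin may still be accessible below the level that the peak caller reports. The difference in calls between MLL-AF9 and the other groups is what selected these regions, so it is described below and was not tested.

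ATAC-seq marks open chromatin by letting a transposase cut accessible DNA and tag it for sequencing. The cells were CD45.2+ marrow cells of C57BL/6 mice in 4 groups of 3 libraries: CD45.2(+) with no fusion named (Control), and CD45.2(+) with MLL-AF9 (MA9), with MLL-ENL (ME) or with BRD9-NUTM1 (BN1). Each library was made from 150000 cells sorted by FACS, with a kit from Active Motif. The labels number the libraries but do not say whether they came from separate animals, how the fusions were introduced, what gate beyond CD45.2 was used, or the age of the mice, so a spread between libraries may be technical.

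MLL-AF9 joins the amino-terminal part of KMT2A (MLL), a histone methyltransferase, to AF9 (MLLT3), a subunit of complexes that promote transcription elongation and recruit the methyltransferase DOT1L. The fusion is known for keeping HOXA genes and their cofactor MEIS1 active in immature myeloid cells. Accessible DNA away from gene starts often holds enhancers, which differ between cell types more than promoters do.

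Most of the members lay away from gene ends. Those that reached a gene start were of unlike sequence types. Sequences from RefSeq (build GRCm38.p6), chosen after the values were seen, show the range: the start of A930033H14Rik, a transcript opposite Rhobtb1, was the strongest member window and rich in CpG (observed over expected CpG 1.02). The start of Hoxa10, a homeobox gene of the cluster that MLL fusions act on, was the strongest window of a Hoxa gene (0.853). The start of Asgr2, a subunit of the asialoglycoprotein receptor, was the strongest coding one with a CpG ratio under 0.3 (0.282). The windows lie at chr10:69213049-69213348 (minus strand), chr6:52234890-52235189 (minus strand) and chr11:70092394-70092693 (plus strand), from 250 bases before to 50 after the annotated start. Capitals mark GGGCGG or its complement CCGCCC, the word bound by SP and KLF factors. It stood 3 times in the A930033H14Rik window and 0 times in the Hoxa10 and Asgr2 windows.
A930033H14Rik: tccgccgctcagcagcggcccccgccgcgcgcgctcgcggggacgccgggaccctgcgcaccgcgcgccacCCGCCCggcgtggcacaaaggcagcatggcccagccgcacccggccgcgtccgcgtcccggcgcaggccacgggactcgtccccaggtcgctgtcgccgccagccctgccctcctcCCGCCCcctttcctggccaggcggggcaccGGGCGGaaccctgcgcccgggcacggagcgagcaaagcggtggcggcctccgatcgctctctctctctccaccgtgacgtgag
Hoxa10: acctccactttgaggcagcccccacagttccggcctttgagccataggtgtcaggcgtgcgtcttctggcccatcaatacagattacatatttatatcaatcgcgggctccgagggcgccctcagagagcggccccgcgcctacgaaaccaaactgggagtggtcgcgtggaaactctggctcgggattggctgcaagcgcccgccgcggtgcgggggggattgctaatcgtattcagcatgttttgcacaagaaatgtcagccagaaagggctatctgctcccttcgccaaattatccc
Asgr2: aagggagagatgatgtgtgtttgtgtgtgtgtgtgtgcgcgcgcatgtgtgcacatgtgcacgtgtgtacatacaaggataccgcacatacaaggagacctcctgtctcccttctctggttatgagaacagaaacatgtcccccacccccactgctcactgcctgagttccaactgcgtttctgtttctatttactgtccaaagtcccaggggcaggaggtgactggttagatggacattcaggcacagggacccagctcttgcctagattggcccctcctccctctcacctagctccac

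The sequences that carry the microRNA result are the mature products of hairpins lying inside members. Of these, miR-196b-5p comes from between Hoxa9 and Hoxa10, and miR-132-3p and miR-212-3p come from neighbouring hairpins on chromosome 11 and share a seed. Capitals mark the seed, bases 2 to 8, which pairs with target messenger RNAs.
miR-196b-5p: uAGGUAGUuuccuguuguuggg
miR-132-3p: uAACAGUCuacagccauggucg
miR-212-3p: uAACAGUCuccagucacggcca

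Peak lists differed in length between groups, and that difference bears on every count here. MA9 lists held 31968 to 33588 peaks, Control lists 25541 to 28023, ME lists 8546 to 9663 and BN1 lists 3011 to 4258. The lists gave no read counts, and depth is unknown. Of the 27412 regions called in all 3 MA9 libraries, 31.3% were called in no other library, and this share is the background for the counts by gene list. Ptprc, which encodes CD45, held 3 called regions in each MA9 library, 3 or 4 in Control, 1 in each ME and 0 in each BN1 library, and no member lay in it.

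The members were weak peaks on average. Signal is the deposited peak value, read here as the area under the significance curve, which grows with both height and width. It was turned into a percentile within each library's own list. The median member stood at percentile 37.1, 33.3 and 33.9 in MA9 libraries 1, 2 and 3 (SD 2.04, n = 3). Median deposited signal was 427, 386 and 392 for member peaks, against 574, 559 and 562 for the whole lists. The median −log10 q was 3.78, 3.63 and 3.66 for member peaks and 4.29, 4.28 and 4.27 for the lists. Member peaks were also narrower, with medians of 283, 266 and 270 bp against 341, 321 and 324 bp. They made up 25.7%, 27.2% and 26.9% of the peaks of the 3 lists.

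Averaged over the 3 MA9 libraries, member percentiles ran from 1.53 to 98.1, with quartiles at 21.5 and 49.0. Of the members, 2027 (23.6%) lay above percentile 50, 201 above 75 and 12 above 90. A member's percentile moved little between libraries: the median SD over the 3 libraries was 5.79. Across members, Spearman's rho between MA9 libraries was 0.805 to 0.828, a description over regions that share libraries and a caller.

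The regions just outside the rule give its edge. Another 976 regions were called in the 3 MA9 libraries and in 1 other: 791 in a Control library, 166 in an ME library and 19 in a BN1 library. Their median percentile was 42.2, above the 33.7 of the members. On the opposite side, 2573 regions had a peak in 2 MA9 libraries and no other, at a median percentile of 12.5. Within MA9, regions also called in all 3 Control libraries and in no BN1 or ME library numbered 7924. Those shared in the same way with ME alone numbered 295 and with BN1 alone 5.

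The share of MA9-only regions was lower in stronger classes. When the 27412 MA9 regions were cut into 10 equal classes of mean percentile, 68.1% of the weakest class were members, 26.0% of the sixth class and 0.255% (7 regions) of the strongest. Calls in ME showed the opposite order: at least 1 ME library called 0.182% of the weakest class, 17.0% of the sixth, 46.5% of the seventh and 99.1% of the strongest. Control called 31.7% of the weakest class and 98.8% of the strongest, and BN1 0.0729% and 86.7%. In the weaker classes nearly every MA9 region was missing from the ME and BN1 lists, members and other regions alike.

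**Figure D1:**
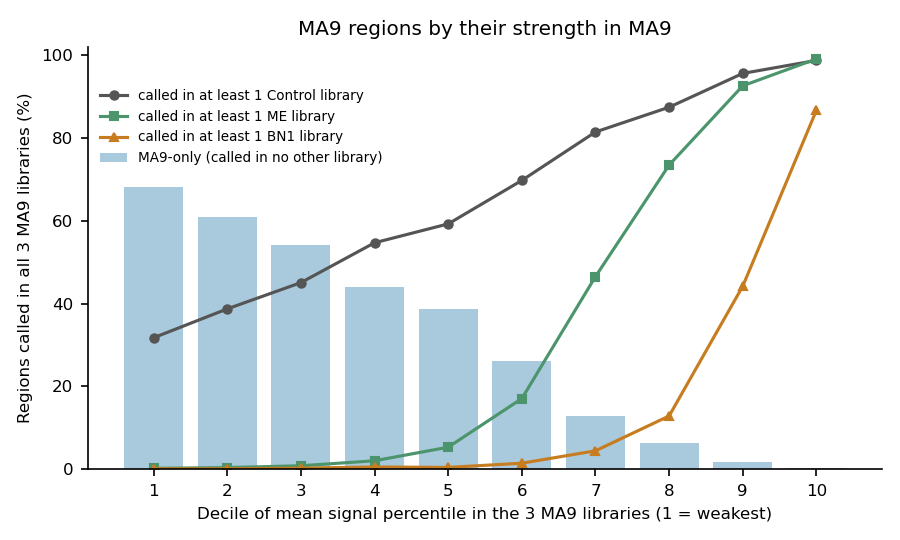
Regions called in all 3 MA9 libraries, in 10 equal classes of mean signal percentile (x axis), with the percentage that was MA9-only (bars) or called in at least 1 library of another group (lines). MA9-only regions fall from 68.1% to 0.255% while calls in ME rise from 0.182% to 99.1%.

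The same limit can be put as list length. Of the members, 5054 (58.9%) lay within the strongest 25541 peaks of every MA9 list, the length of the shortest Control list. Within the strongest 8546, the length of the shortest ME list, were 176 members (2.05%), and within the strongest 3011, that of the shortest BN1 list, 7 (0.0816%). Absence from Control can therefore be read for more members than absence from ME or BN1.

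A library that the choice did not use repeated most calls. When regions were chosen on libraries 2 and 3 of each group, 94.9% of 9472 were also called in MA9 library 1. The share was 88.5% of 9861 with number 2 left out and 89.95% of 10002 with number 3 left out. The left-out Control library called 3.54%, 0.720% and 4.36% of the same regions, the ME library 0.845%, 0.821% and 0.130%, and the BN1 library 0.148%, 0.0406% and 0.0300%. Calls in the left-out MA9 library thus outnumbered those in each left-out library of another group in all 3 rounds. The choice already required calls in the other MA9 libraries and none in the fellow libraries of each other group. This order therefore describes how alike the libraries of a group were. The ME and BN1 lists were short and held few of the weaker MA9 regions, so their low shares say little.

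Members lay far from gene ends. Of the 8577, 7563 (88.2%) were more than 1 kb from either end of a protein-coding gene, with a 95% Wilson interval of 87.5 to 88.8% that covers counting error only. The share was 56.2% among the other 18835 MA9 regions, 87.0% among the 5313 regions called in the 3 Control libraries alone and 73.9% among all merged regions. Counted from annotated start sites, coding and lncRNA, 11.4% of members lay within 1 kb, against 41.8% of the other MA9 regions and 13.9% of the Control-only regions. The median distance to a start was 16.1 kb for members, 3.53 kb for the other MA9 regions and 12.1 kb for the Control-only regions. By these values the members stood nearer to the Control-only regions than to the other MA9 regions, a difference that was not tested. Start sites on chromosome 18 were not used, which leaves 8307 members with a distance.

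**Figure D2:**
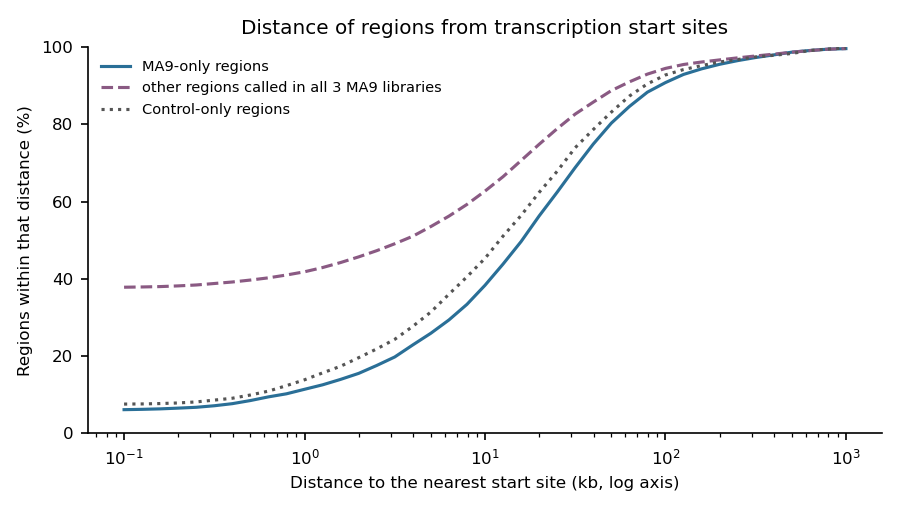
Percentage of regions (y axis) within a given distance of the nearest start site (x axis, kb, log axis) for MA9-only regions (solid), other regions called in all 3 MA9 libraries (dashed) and Control-only regions (dotted). At 1 kb the curves stand at 11.4%, 41.8% and 13.9%.

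Members had small merged widths. The median was 304 bp, against 635 bp for the other MA9 regions and 349 bp for the Control-only regions, and 75 members were 1 kb or wider. Members join MA9 peaks alone, while the other MA9 regions also join peaks of other groups, which can widen them. Within single MA9 libraries the gap was smaller: member peaks had medians of 283, 266 and 270 bp, and the whole lists 341, 321 and 324 bp. A gene body held 53.6% of the members, against 60.5% of the other MA9 regions. The nearest region called in another group was at a median of 13.3 kb. It lay within 500 bp of 753 members (8.78%) and over 10 kb from 4823 (56.2%). For 3291 members (38.4%), a region called in all 3 MA9 libraries and elsewhere lay within 10 kb. By the rule no member overlaps a region called in another group. The distances were not computed for other classes of regions, so they do not show whether members lay unusually far apart. Chromosomes differed little: members were 26.4% of the MA9 regions on chromosome 7, the lowest share, and 35.9% on chromosome 16, the highest.

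The strongest member lay inside Ltbp2, which encodes an extracellular matrix protein related to the binding proteins of latent TGF-beta. At chr12:84846523-84848481 it was 1959 bp wide and stood at percentile 98.2, 97.9 and 98.0 in the 3 MA9 libraries, with −log10 q of 7.12, 6.75 and 7.03. Another member inside Ltbp2, at chr12:84854573-84855590, reached 90.1, 90.2 and 90.7. Ltbp2 was thus the only gene with 2 of the 12 strongest members, and both were steady across libraries.

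The next ones lay inside or beside genes of unrelated function. The member in Baz2b, a bromodomain gene, at chr2:60109536-60110337 stood at 93.8, 94.4 and 94.2; the nearest coding gene end was that of Gm13570. The member 63.2 kb from Ppara, the nuclear receptor of fatty acid oxidation, stood at 94.5, 94.4 and 92.8. The member in Pde4d, a cyclic AMP phosphodiesterase, stood at 94.6, 94.3 and 86.9. The member in Egln3, a prolyl hydroxylase that marks hypoxia-inducible factors for destruction, stood at 92.2, 86.1 and 93.3. The remaining ones near Msl3l2, Chsy1 and Susd5 had means of 92.6, 91.2 and 90.7.

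Signal and significance differed for some of the strong members. The widest member, 3886 bp in Prim2, a DNA primase subunit gene, stood at percentiles 95.5, 93.9 and 95.5. Its −log10 q was 3.11, 3.46 and 2.93, below the median of the whole lists. The member in Fry, 1878 bp wide, was similar, with percentiles of 94.7, 93.4 and 93.2 and −log10 q of 3.85, 3.90 and 3.68. The member in Ltbp2 was of similar width to that in Fry and had higher significance.

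**Figure D3:**
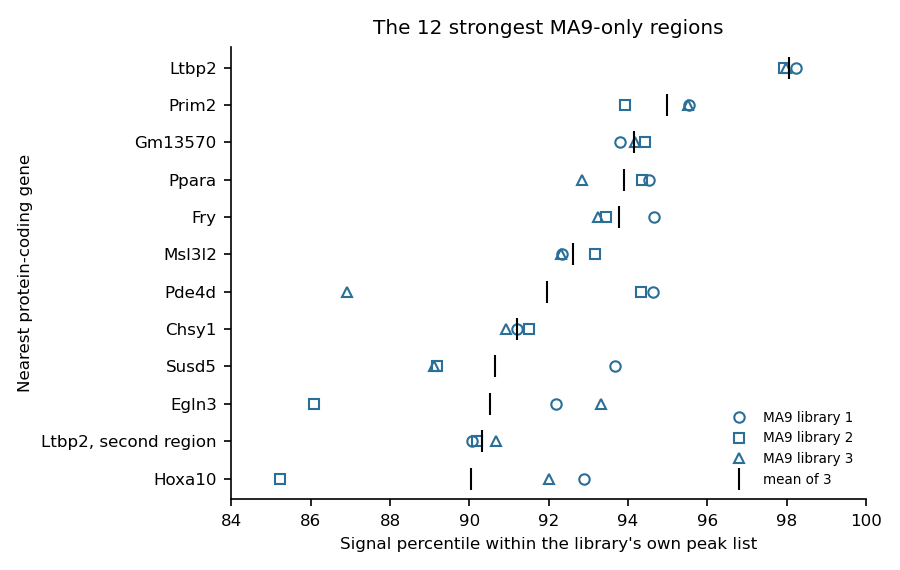
Signal percentile within each MA9 library's own list (x axis) for the 12 strongest MA9-only regions (y axis, nearest protein-coding gene), with 1 symbol per library and a bar at the mean of 3. The regions at Ltbp2 and Chsy1 lie close together in the 3 libraries, while those at Pde4d, Egln3 and Hoxa10 spread over more than 5 percentiles. Each symbol is a library's strongest peak in the region. Over the 3 libraries, each region at Ltbp2 and Chsy1 held 3 peaks, and those at Pde4d, Egln3 and Hoxa10 held 4 each. The part of divided peaks in the spread was not tested.

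Strong members at gene ends were few. Within 1 kb of a gene end, after Msl3l2 and the Hoxa10 end described below, the member at an end of Foxp1, a forkhead transcription factor, stood at 90.002, 88.2 and 88.7. The shared start region of Rhobtb1 and A930033H14Rik, whose sequence is given above, stood at 84.5, 86.3 and 83.5. Those at Tnk1 and Plscr3, at Ttc3 and Pigp and at Ccr7, a chemokine receptor gene, had means of 83.8, 82.5 and 80.3.

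The weakest members sat at the caller's limit. The member near Golm1 had deposited signals of 202, 204 and 212, close to the 200 below which no peak was listed, and a mean percentile of 1.53. Those near Mrps28, Exoc6b, Entpd3 and Sgip1 had means of 1.87, 1.89, 2.19 and 2.49.

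The Hoxa cluster held 10 members among its 16 regions called in all 3 MA9 libraries. It encodes the homeobox factors that MLL fusions are known to keep active. The other 6 were shared: 4 were also called in all 3 ME libraries, 2 in some of them, and 1 of the 4 also in all 3 Control libraries. No BN1 library had a call across the 16. Between the Hoxa9 start and the Hoxa11 start, MA9 libraries had calls and no library of another group did.

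From the Hoxa9 start to the Hoxa10 start lay 5 members, with 2 further regions among them that 1 or 2 MA9 libraries called. Nearest to Hoxa9, the member at chr6:52227885-52228160 stood at percentile 54.7, 47.5 and 49.0, and the next one at chr6:52228939-52229415 at 44.0, 31.4 and 34.2. The strongest, at chr6:52229577-52231186, covered Mir196b and reached the 3′ end of Hoxa10 within 0.011 kb, at 92.9, 85.2 and 92.0. A small member inside Hoxa10 stood at 46.8, 46.5 and 51.4. The member over the Hoxa10 start, chr6:52233558-52235313, was 1756 bp wide and stood at 82.5, 78.2 and 83.5.

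The other members of the cluster were weaker than those over Mir196b and the Hoxa10 start. The member over the Hoxa11 start stood at 62.0, 56.2 and 62.0, and a neighbour 0.544 kb from the gene was called in 2 ME libraries. A member between Hoxa6 and Hoxa7, at an end of the long Hoxa3 annotation, stood at 76.6, 50.9 and 64.7, next to a region called in all 3 ME libraries. Those at Hoxa4, Hoxa7 and within Hoxa10 near a further start had means of 43.4, 30.1 and 34.2. The Hoxa9 region called in the 3 Control libraries stood at percentile 97.8, 97.4 and 96.95 in MA9, above each member of the cluster.

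**Figure D4:**
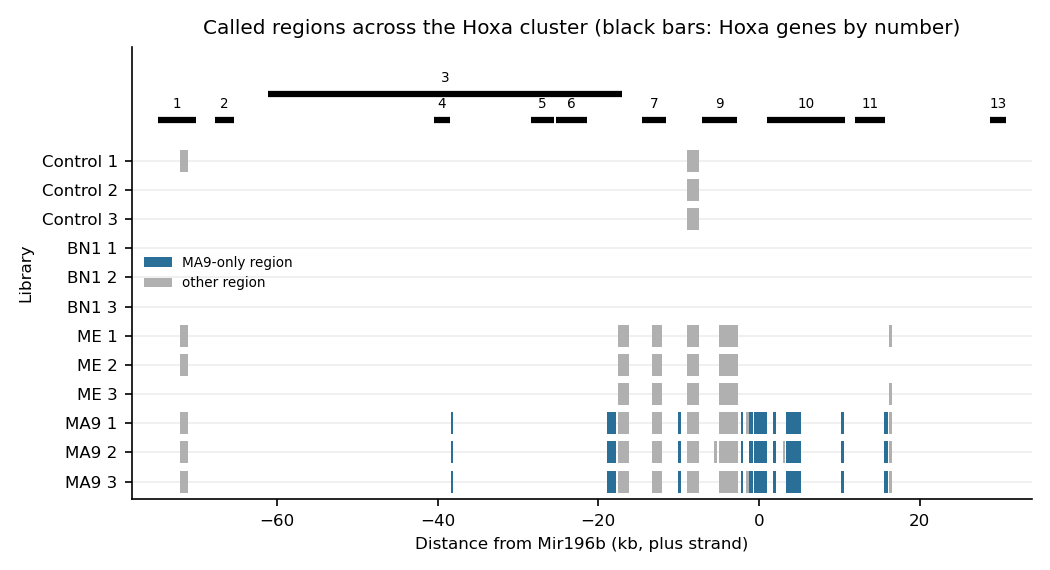
Regions called in each of the 12 libraries (rows) across the Hoxa cluster, by distance from Mir196b (x axis, kb), with Hoxa genes as black bars above; MA9-only regions are blue and other regions grey, and very narrow regions are drawn at a minimum width. The 3 ME libraries have calls up to Hoxa9 and 2 have one beyond Hoxa11, and the blue regions from Hoxa9 to the Hoxa10 start appear in MA9 alone.

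Genes were assigned to members by the nearest protein-coding gene end. This gave 5072 genes with a member among 13464 with any region, or 37.7%. Of these, 3201 had 1 member, 1045 had 2, 627 had 3 or 4 and 199 had 5 or more. Assignment by distance does not show that a member acts on the gene.

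Cofactors of Hox proteins and other known targets of MLL fusions had the highest count of members among the lists. A member was nearest to 14 of 16 genes (37.7% over all genes with a region). Of their 97 MA9 regions, 45 were members (46.4%, against 31.3% over all), at a median percentile of 47.3. Counts of genes, here and for the lists below, were not adjusted for regions per gene. A gene with many regions can more readily have a member, so the share of regions is the closer comparison. The same list also had 30 Control-only regions over 9 genes, of which 9 regions were near Mef2c. Cdk6, a kinase of cell cycle entry, had 8 members and 2 Control-only regions. The widest, chr5:3435833-3438732 inside Cdk6, was 2900 bp and stood at 95.3, 79.3 and 93.2, and the others ranged down to a mean of 18.7. The value of library 2 was thus the lowest at this region. The MA9 lists held 5 peaks in it, and each percentile is that of a library's strongest peak alone. Whether a divided peak gave the lower value was not tested.

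Meis1, the Hox cofactor gene, had 6 members with means from 26.7 to 62.2. The strongest, 8.31 kb upstream of the start, stood at 59.5, 59.4 and 67.8. The member 0.805 kb upstream of the start stood at 58.9, 47.3 and 66.3, while the start itself was called in Control and MA9 and not in ME or BN1. Myb, a factor that keeps progenitors dividing, had 4. Its strongest, chr10:21146130-21147650 inside the gene, stood at 88.99, 84.9 and 87.4.

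Eya1 encodes a transcriptional coactivator with phosphatase activity. It had 3 members, and the strongest, 0.641 kb from an end, stood at 77.5, 74.2 and 72.1. Mecom, the gene of the stem cell factor EVI1, and Mn1, a coregulator active in leukaemia, had 2 each, with best means of 59.4 and 80.7. Myc, Lmo2 and Zeb2 had 3 each with best means of 51.2, 57.5 and 52.0, and they also had 2, 7 and 4 Control-only regions.

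The complexes that MLL fusions recruit were close to the background by genes and below it by regions. Among 14 genes, 5 had a member (35.7%, against 37.7% over all genes with a region). Of 42 MA9 regions, 10 were members (23.8%, against 31.3% over all). Dot1l, the histone H3 lysine methyltransferase gene, had 2, and the stronger stood at 68.7, 64.5 and 63.5. Mllt1, which encodes ENL, had 4 with a best mean of 50.2. Aff1, a scaffold of the elongation complex, had 2 and a best mean of 60.1.

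Genes of stem and progenitor cells had a member at 10 of 15, with 34 of 87 MA9 regions (39.1%) and a median percentile of 33.5. Erg and Runx1, transcription factors of blood stem cells, had 7 each. The strongest of Erg, inside the gene, stood at 71.2, 72.7 and 70.1, and that of Runx1 at 64.4, 69.6 and 66.0. Sox4 had 6 members with a best mean of 44.6. The receptor genes Flt3 and Kit had 2 each, and those of Kit were weak, with means of 11.5 and 11.2.

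Myeloid transcription factor genes had a member at 9 of 14, and 29 of 104 MA9 regions (27.9%) were members. The 9 genes became 3 when a member had to lie inside the gene or within 10 kb of it. Klf4, a factor of monocytes, had 9, spread from 11.9 kb to 582 kb from the gene, the strongest at 56.2, 57.8 and 43.4. Cebpb had 4 with a best mean of 70.9 beside 14 other MA9 regions. Cebpa, a factor that granulocytes need, had 1 at a mean of 5.52.

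Granule protein genes of promyelocytes had a member at 8 of 12, with 13 of 37 MA9 regions (35.1%). Elane, the gene of neutrophil elastase, had 3 and no other MA9 region. The member at its start stood at 56.6, 64.0 and 59.5, and the pair on either side had means of 47.1 and 52.8. Mpo, Ctsg and Prtn3 had 1 each with means of 24.99, 37.3 and 4.19.

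Among markers of B cells, erythroid cells and neutrophils, Control-only regions were at least as many as the regions called in MA9. B cell genes had 0 members among 8 MA9 regions and 38 Control-only regions over 12 genes. Erythroid genes had 1 of 6, near Klf1, and 31 Control-only regions, and genes of neutrophil maturation had 2 of 24, both near Ly6g, and 24 Control-only regions. Monocyte and macrophage genes had 5 of 34 and 9 Control-only regions, and dendritic cell genes 6 of 18 (33.3%) and 12. Fewer cells of a type and less open chromatin per cell cannot be told apart in bulk libraries, and the part of cell makeup in the members was not tested.

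Other cell type lists also held members. Endothelial and stromal genes had a member at 4 of 9, with 15 of 27 MA9 regions (55.6%): 5 near Flt1, 4 near Pecam1, and 3 each near Pdgfrb and Cxcl12. The strongest was one in Pdgfrb, with a mean of 77.2. No start site of Flt1 or Cxcl12 was called in any group. T cell genes had 3 of 9, NK cell genes 3 of 7, megakaryocyte genes 4 of 11, and mast cell, basophil and eosinophil genes 2 of 8. Control-only regions numbered 6, 0, 6 and 0 for these lists. The strongest of these, inside Bcl11b, stood at 72.6, 74.2 and 73.9. Of genes silent in blood, Nanog, Cdx2 and Neurog2 each had 1 member and no other MA9 region, with means of 30.4, 21.5 and 10.5.

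**Figure D5:**
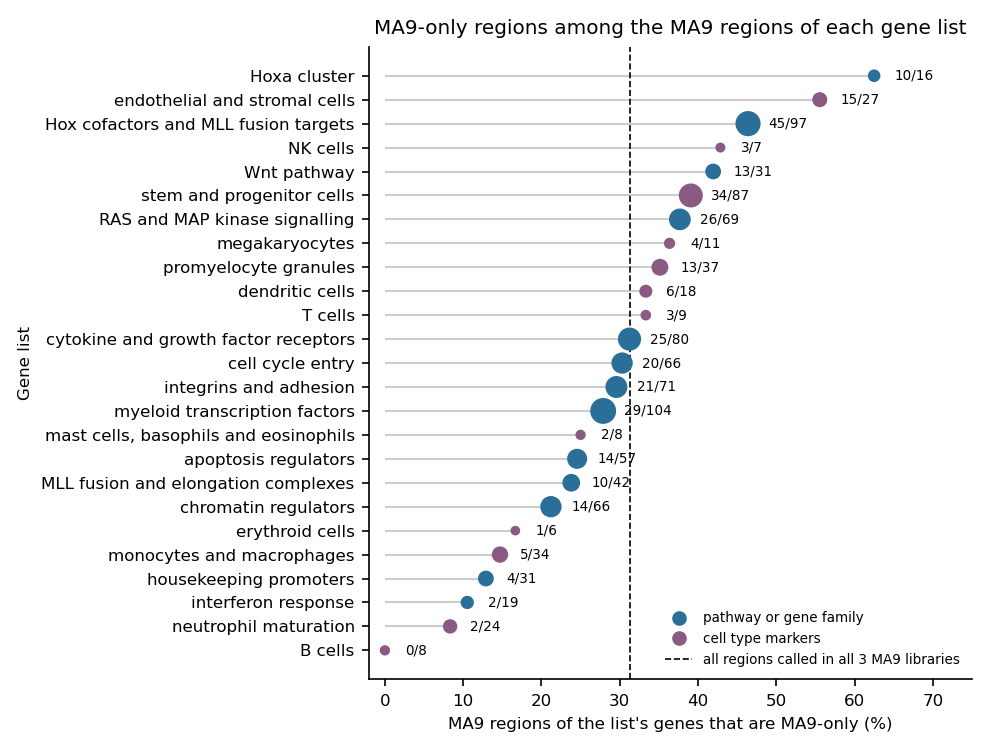
Percentage of the MA9 regions nearest to each list's genes that were MA9-only (x axis), with the counts beside each point, point size growing with the number of MA9 regions, and the 31.3% over all MA9 regions as a dashed line; lists with fewer than 6 MA9 regions are not drawn. The Hoxa cluster (10 of 16), endothelial and stromal genes (15 of 27) and Hox cofactors (45 of 97) lie highest, and B cell genes (0 of 8) lowest.

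Signalling genes stood near the background or above it. RAS and MAP kinase genes, which relay growth factor signals, had a member at 12 of 20, with 26 of 69 MA9 regions (37.7% of the MA9 regions, against 31.3%) and a median percentile of 41.9. Spry2, a feedback inhibitor of the pathway, had 5, the strongest at 60.7, 64.8 and 57.6. Ptpn11, the SHP2 phosphatase gene, and Mapk3, the ERK1 gene, had 2 each with best means of 69.6 and 69.2. Wnt pathway genes had 13 of 31 (41.9%), with a best mean of 70.0 for a member near Ctnnb1, the beta-catenin gene.

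Receptors and adhesion molecules were close to the background. Cytokine and growth factor receptor genes had 25 of 80 (31.3%), of which 5 were near Igf1r, the strongest at 64.4, 71.2 and 69.0. Integrins and other adhesion genes had 21 of 71 (29.6%), of which 6 were near Cxcr4, the receptor that holds blood stem cells in the marrow. The best means were 75.02 near Itga6 and 74.8 near Itgb2, integrin subunit genes.

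Cell cycle genes had 20 of 66 (30.3%), of which 8 were those of Cdk6. Cdkn2a, the tumour suppressor gene of p16 and ARF, had 2 members and no other MA9 region. The member at its start stood at 62.4, 56.9 and 62.4. The start was called in MA9 and in no other group, which follows in part from the rule that chose this member. Apoptosis regulators had 14 of 57 (24.6%), of which 7 lay 56.8 to 202 kb from Bcl2l11, the BIM gene, the strongest at 78.1, 75.3 and 75.8. Chromatin regulators had 14 of 66 (21.2%), of which 4 were near Kdm2b, a histone demethylase gene.

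Housekeeping genes had 4 of 31 (12.9%) and interferon response genes 2 of 19 (10.5%), below the 31.3% over all MA9 regions, while genes silent in blood, given above, had 3 of 3. Counted as genes with a member, housekeeping had 3 and interferon response 2. With members inside the gene or within 10 kb these became 6 and 5, and at a −log10 q of 3 or more both were 1. The lists contain genes known as MLL-fusion targets and were put together with results of these libraries known, so their counts are a description.

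Several of the genes nearest to most members were long or had their members far away. Zfp703, a zinc finger factor gene of 4.13 kb, had 12, at a median of 199 kb from the gene; the strongest, chr8:26596378-26597304, stood at 88.8, 89.1 and 88.5. Wwox, a tumour suppressor gene of 913 kb, had 11, of which 8 were inside it. Pde4d, of 1302 kb, had 11, all inside it. Gm826 and Reep3 had 10 each.

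Genes with 9 members were Ppargc1a, Foxp1, Micall2, Trpc7, Irf2bp2, Chd9 and Klf4. Ppargc1a, a coactivator of mitochondrial genes, had 1 other MA9 region, and its strongest member stood at 68.5, 72.3 and 70.9. Trpc7, a cation channel gene, had no other MA9 region, and its strongest stood at 82.9, 81.0 and 83.1. Irf2bp2, a corepressor gene, had 19 other MA9 regions and Foxp1 had 10.

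The 4 windows of 500 kb with the most members were picked by that count, and members were 31.3% of all MA9 regions. The densest, chr17:45500001-46000000, held 18 members of 33 MA9 regions (54.5%). Of these members, 4 were nearest to Vegfa, the endothelial growth factor gene, and percentiles ran from 10.7 to 57.7 over the window. The window at chr8:126500001-127000000 held 16 of 50 (32.0%), close to the share over all, with 9 nearest to Irf2bp2. The window at chr11:4000001-4500000 held 16 of 31 (51.6%), with 3 nearest to Lif and 2 to Osm, cytokine genes. The window at chr17:27500001-28000000 held 15 of 32 (46.9%). Of these, 3 were nearest to Hmga1, a chromatin architectural protein gene, and their strongest was the highest of the 4 windows at a mean of 76.0. The strongest member of the Vegfa window stood at 57.7 and that of the Lif and Osm window at 48.1, so neither window held a strong member.

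Genes with distal members had a smaller share of called start sites than genes without. A start counted as called in a group when a region within 1 kb was called in all 3 of its libraries. Among 7281 genes that had a region but no member over 1 kb from a start, 71.8% had a start called in MA9 and 70.0% in Control. Among 2237 genes with 1 such member the shares were 57.3% and 53.8%, and among 128 genes with 5 or more they were 59.4% and 52.3%. ME stood at 44.1%, 34.8% and 36.7% and BN1 at 16.9%, 12.79% and 12.5% for the same classes. The share was lower with distal members than without in each of the 4 groups, and MA9 stood above Control by 1.83, 3.53 and 7.03 percentage points. Only genes with a region were counted. A gene without a distal member thus entered through another region, which could be the one at its start. The classes were also sorted by MA9-only calls. The order of the shares and the gap to Control follow in part from this sorting and were not tested. Erg, Pde4d, Trpc7 and Ppargc1a had 7 or more distal members with no start called in any group, and Irf2bp2 and Bcl2l11 had 9 and 7 with starts called in all 4.

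Promoter windows inside members differed from those of other MA9 regions in CpG content. Members overlapped 601 of 31396 windows. Median GC content was 62.0% in members and in other MA9 regions, 52.3% in Control-only regions and 53.0% over all windows. The median ratio of observed to expected CpG was 0.673 in members, 0.809 in other MA9 regions, 0.325 in Control-only regions and 0.389 over all windows. A ratio under 0.6 was found in 43.4% of member windows, 19.6% of those in other MA9 regions and 76.5% of those in Control-only regions. Starts of lncRNA genes made up 26.5%, 12.1% and 33.4%. Member promoters were therefore mixed, as the windows of A930033H14Rik and Asgr2 show.

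Short words were counted on both strands in these windows. GGGCGG stood in 58.6% of member windows, 68.2% of those in other MA9 regions and 36.0% of all windows. At equal strength, with the other MA9 regions weighted to the members' strength classes, that comparison turned: the other regions held it in 54.4%. CCAAT, the NFY word, stood in 28.0% of member windows against 39.7% (33.7% at equal strength; 37.3% of all windows). GGAAGT, the core word of PU.1 and other ETS factors, which also lies within the longer PU.1 word, stood in 25.5% against 31.7% (34.8% at equal strength; 23.9% of all windows).

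Other words had a higher share in members. TGANTCA, the AP-1 word, stood in 8.15% of member windows against 4.21% (6.34% at equal strength; 7.84% of all windows). AGGGGGC, part of the CTCF motif, stood in 18.6% against 17.0% (14.5% at equal strength; 10.7% of all windows). AGATAA, a word of the GATA factors, stood in 5.32% against 4.92%, and the order turned at equal strength (7.23%); it stood in 17.5% of Control-only and 11.2% of all windows. Of 20 words, 9 had a lower share in members than in other MA9 regions and 7 at equal strength. These differences between classes were not tested. A word is a match of letters, not a bound site, and these windows hold the small part of the members that reached a start.

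Few members covered a microRNA hairpin: 5 regions did (0.602 per 1000 members), against 59 of the other MA9 regions (3.22 per 1000) and 5 of the Control-only regions (0.970 per 1000). These rates were not adjusted for width, and the median was 304 bp for members and 635 bp for the other MA9 regions. The hairpins covered by members were Mir196b, whose member is described with the Hoxa cluster, Mir3092 (percentiles 81.1, 79.9 and 78.6), Mir8109 (62.4, 59.7 and 60.1), Mir132 and Mir212 in 1 region (59.2, 65.6 and 54.0) and Mir1956 (49.4, 50.7 and 50.5). Of their mature products, miR-132-3p and miR-212-3p share the seed AACAGUC, shown in capitals above, and the other seeds occurred once. A hairpin within 5 kb of a member was found 75 times among 919 hairpins.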

How the data were processed

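Peak lists of 12 ATAC-seq libraries were used as deposited, in narrowPeak layout. The submitters' processing notes name Genrich (with no version), deepTools 3.5.1, Picard 3.2.0 and Bowtie2 2.5.4, and the build mm10 (GRCm38); their options are not given in the sources used here. The deposited signal, never below 200, was taken to be the area that Genrich computes beneath its −log10 p curve. The authors' −log10 p and −log10 q values describe each peak, and the deposited score and summit position (an offset in bp, unit other) were not used further. Since no column shares a scale across libraries, signal was ranked within each library.

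With Python 3.11.15, pandas 2.3.3, numpy 2.4.6 and scipy 1.17.1, peaks overlapping by 1 bp or more were merged, classified by library and placed against RefSeq GRCm38.p6 genes, promoter windows and miRNA tables; 362 of 363 list genes matched. Merging and the choice of members were tested on simulated data. A member's percentile is the mean over the 3 MA9 libraries of its strongest peak. Strength classes are 10 equal parts of the regions called in all 3 MA9 libraries. Motif shares around summits were replaced by promoter windows because no genome sequence was used here; chromosome 18 windows were not used.

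Named were the 12 strongest members, the 8 strongest within 1 kb of a gene end, the 5 widest and 5 weakest, the 12 genes with most members, up to 5 genes per list and the 4 densest 500 kb windows. Some items that this rule names are not reported here. The members and lists were chosen with earlier results of these data known. No p-value was computed. Alternatives changed the merging, the call rule, peak significance, list length, distances and libraries used.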

Additional observations from a re-analysis of the deposited data

Results flagged for a closer look

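Peaks on unplaced sequences of the assembly were outside the comparison. There, 13 regions were called in all 3 MA9 libraries and in no other library, a signal in data not otherwise used here. As many as 14 regions on the same sequences were called in the 3 Control libraries alone, out of 69 regions in all. The lists held 45 to 46 such peaks in MA9, 42 to 44 in Control, 5 in each ME library and 1 to 3 in BN1.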

How the results depend on the processing

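The number of members changed most with list length. It was 5053 when each MA9 list was cut to its strongest 25541 peaks, and 159 when each of the 12 lists was cut to 3011. With every other change it stayed within 1.5 times 8577: 7899 at a −log10 q of 3 or more, 8005 to 11150 over the other rules of merging and calling, and 8580 to 9748 with 1 library left out. The share of members over 1 kb from a gene end (88.2%) was 87.5% at a −log10 q of 3 or more, 91.6% beyond 500 bp, 82.2% beyond 2 kb and 81.6% with noncoding genes included; it was 87.3 to 88.3% with 1 library left out. The median percentile (33.7) was 31.0 with MA9 lists cut to the shortest Control list and 31.5 to 33.9 with 1 library left out. The number of list genes with a member nearest was 140, and 126 and 127 under 2 other assignments and 138 at a −log10 q of 3 or more. Calls in a held-out MA9 library averaged 91.1%, and 90.6% at the stricter significance. For 6 of 20 words the sign of the difference between members and other MA9 regions turned at equal strength. The 50 bp windows around summits were not run. Start sites in place of gene ends and the stricter held-out calls were chosen after seeing the data. No paired analysis was possible because no result came from a test. Read depth, which the lists do not give, limits any reading of an absent call.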

Other observations

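Several members lay near the hairpins of microRNAs known in blood cells without covering them. The member 630 bp from Mir148a had a mean percentile of 74.9, that 563 bp from Mir146b 44.9, and that nearest to Mir126a, 4029 bp away near Egfl7, 24.9. Promoter windows of Met, the receptor of hepatocyte growth factor, and of Rps6ka1, a kinase of the ERK pathway, lay in members with mean percentiles of 75.7 and 76.9. The window of Ephb3, an ephrin receptor, lay in one with 79.9. These genes and hairpins were picked after their values were seen.

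Among the MA9 regions that just 1 other library called, Control libraries 1, 2 and 3 accounted for 320, 67 and 404 regions. The lists of these libraries held 27509, 25541 and 28023 peaks.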
